A study of Mus musculus with 4 samples.

Results

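Solute carriers are the membrane proteins that move amino acids, sugars, ions, metals, vitamins and metabolites across the cell surface and across the membranes of organelles. The genes described here are the mouse genes with an Slc family symbol (Slc, a family number, the letter a and a member number) and a mean level of at least 1 FPKM over the 4 libraries of the series. FPKM is a fragment count divided by transcript length and by library size, so it is a level per length and relative to the library's own total, not an amount of mRNA per oocyte. Of 341 such symbols, 148 reached that mean, 193 did not, and 131 of the 193 were listed at 0 in all 4 libraries. Another 42 symbols of differently named Slc and Slco subfamilies fall outside the name rule and were not analysed here. The genes were chosen by their mean FPKM, so their levels are given as a description. Just outside the threshold lay Slc6a12, Slc26a5 and Slc17a5 with means of 0.949, 0.951 and 0.975 FPKM, and just inside it Slc5a6, Slc22a14 and Slc35a3 with 1.06, 1.12 and 1.15 FPKM.

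Of the 148 genes, 3 carry an Slc symbol without being carriers: Slc7a6os lies opposite Slc7a6, Slc9a3r1 encodes a scaffold protein and Slc4a1ap encodes an adaptor. The other 145 were sorted by their known substrates into carriers of amino acids (22 genes), sugars and nucleotide sugars (14), inorganic ions (22), metals (18), the mitochondrial Slc25a family (32) and other substrates such as vitamins, nucleosides and organic acids (37). Only 94 of the 148 were above 0 in all 4 libraries, 54 were listed at 0 in at least 1 library, and 10 reached 1 FPKM in 1 library only. A gene that passed the mean through 1 library had to differ between libraries, so counts are also given for the 64 genes that average 10 FPKM or more, 61 of them carriers.

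The series holds 4 libraries of ICR mouse oocytes, 1 for each combination of genotype and stage: MII labelled Erk-/-, MII wild type, GV labelled Erk-/- and GV wild type. GV oocytes are fully grown and still carry the germinal vesicle, and MII oocytes have matured to the metaphase arrest of meiosis II at which they can be fertilised. Each library was made from the mRNA of 60 oocytes or embryos lysed together, from females 21 to 23 days old, and the collection protocol names the hormones PMSG and hCG and also mating for embryos. That protocol names Btg4-/- rather than Erk-/- females, and the design text speaks of an oocyte for each group. The labels give neither the driver of the deletion nor which of the ERK genes was removed. No group has a replicate, so no difference below could be tested and each is between single libraries.

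Growing and maturing oocytes depend on carriers for amino acids, for zinc and for the substrates their mitochondria burn, and they receive glucose products and several amino acids from the surrounding cumulus cells through gap junctions. Transcription is nearly shut off once growth is complete. Stored transcripts are then either kept silent with short poly(A) tails, given longer tails and translated, or degraded while the oocyte matures. Cytoplasmic polyadenylation is directed by short U-rich elements near the 3' end of the transcript, and ERK signalling is known to act on that step.

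Mapk3, which encodes ERK1, had 34.3 FPKM in the MII library labelled Erk-/- and 25.7 in wild-type MII, against 52.3 in Erk-/- GV and 333 in wild-type GV. The gene-level value does not go with the label at MII, so that library is called by its label throughout. All 14 oocyte marker genes were detected in every library, with summed levels of 7642 to 22924 FPKM. Of 22 granulosa and cumulus cell markers, 15 to 18 were listed at 0 in each library, among them Fshr, Lhcgr, Amh, Foxl2 and Star in all 4, and their summed level was 15.4 to 37.2 FPKM. Cyp19a1 led it in the MII libraries and in wild-type GV. In Erk-/- GV it came from Nr5a2, Inha and Gja1, at 17.0, 11.3 and 7.71 FPKM there and 6.84, 3.80 and 0.0309 FPKM in wild-type GV. Of 14 markers of other ovarian and blood cells, 12 or 13 were listed at 0, and Pecam1 made up most of the remainder with 25.6 to 64.3 FPKM. Their part in the carrier levels was not tested. In these bulk libraries fewer cells of a type and less RNA per cell cannot be told apart. The number of reads is unknown. The distance between the authors' bounds, halved, was a median of 8.06% to 9.80% of the value among Slc genes of at least 10 FPKM in a library. The values of 5 to 7 Slc genes in each library lay outside their own bounds.

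The 145 carriers together reached 3831 FPKM in the MII library labelled Erk-/- and 4123 in wild-type MII, against 2934 in Erk-/- GV and 3070 in wild-type GV. This was 0.925%, 1.03%, 0.697% and 0.677% of all FPKM in the same order, so the carriers took a larger share of the MII libraries. Slc45a3, known as prostein and as a proton-coupled sugar carrier, was the most abundant carrier in every library. It alone made up 24.8% of the summed carrier level in the MII library labelled Erk-/-, 34.6% in wild-type MII, 19.0% in Erk-/- GV and 16.7% in wild-type GV. The number of carriers listed at 0 was 14 in the MII library labelled Erk-/-, 28 in wild-type MII, 23 in Erk-/- GV and 15 in wild-type GV. The median carrier level was 7.35 FPKM in the MII library labelled Erk-/- and 4.11 in wild-type MII, against 7.26 in Erk-/- GV and 7.62 in wild-type GV.

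**Figure D1:**
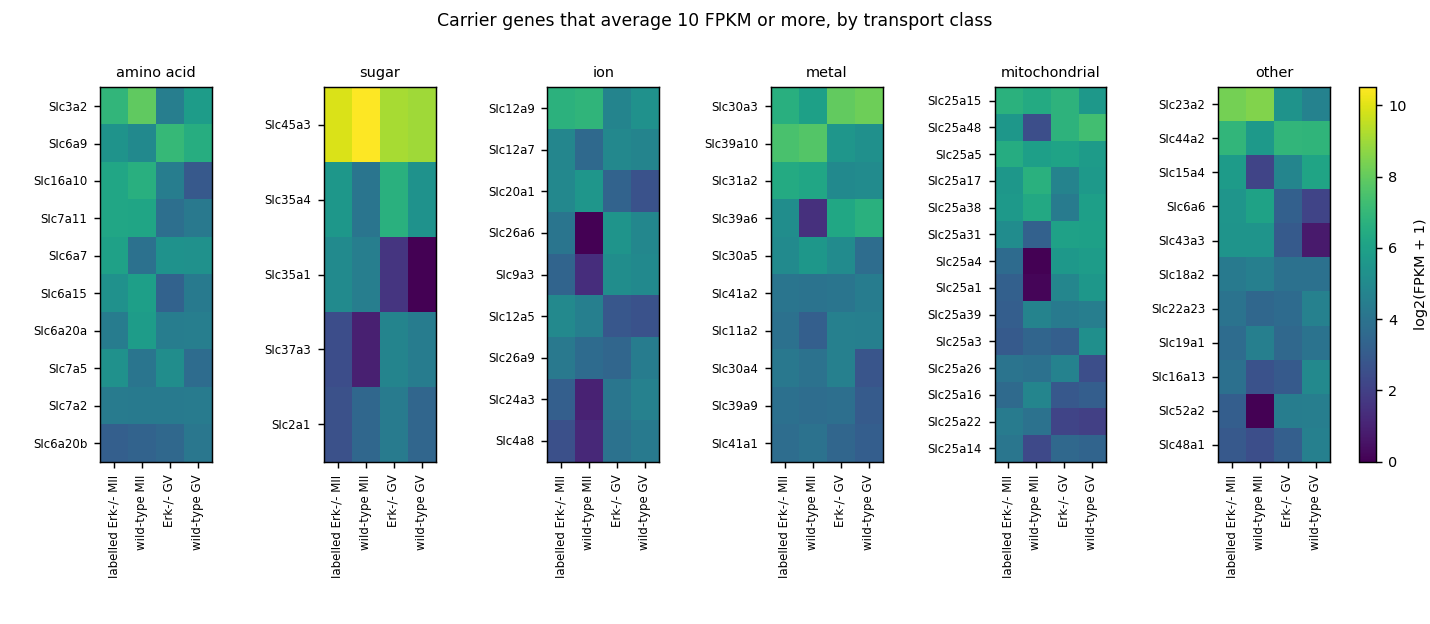
Level of 59 of the 61 carriers that average 10 FPKM or more, as log2(FPKM + 1) by colour, with 1 panel for each class and the libraries in columns. Slc45a3 is the brightest gene in all columns, and dark cells in the wild-type MII column mark Slc26a6, Slc25a4 and Slc52a2, which are listed at 0 there.

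The libraries were compared as log2 of (FPKM + 1) over (FPKM + 1), a scale on which the change of low genes is understated. A gene is called higher or lower when the ratio on that scale is 2-fold or more. With the label Erk-/-, 42 of the 148 genes were higher at MII than at GV and 37 were lower, beside 22.9% higher and 35.6% lower of the 9990 genes that reach the same mean. The median log2 ratio was 0.13 for the Slc genes and -0.26 for all 9990. Among wild-type libraries, 39 of the 148 were higher at MII than at GV and 63 were lower, beside 20.6% higher and 49.6% lower of all genes, with medians of -0.45 and -0.97. Among the 64 genes that average 10 FPKM or more, wild-type maturation held 23 higher and 27 lower with a median of 0.12, beside 23% higher and 48.2% lower of 5294 genes of that mean.

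Between genotypes at MII, 45 of the 148 genes were higher in the library labelled Erk-/- than in wild type and 11 were lower. The background was 31.4% higher and 7.43% lower, so the Slc genes split nearly as all genes did. Their median log2 ratio was 0.18, and that of all genes was 0.31. At GV, 26 were higher in Erk-/- than in wild type and 38 were lower, beside 18.4% and 22.9% of all genes, with medians of -0.01 and -0.06. The difference of maturation ratios, labelled Erk-/- less wild type on the log2 scale, was 1 or more for 63 genes and -1 or less for 28, beside 41.2% and 18.8% of all genes. Among the 64 genes that average 10 FPKM or more, 22 were higher and 5 lower at MII with the label, beside 33.1% and 5.31% of all genes of that mean. At GV the same 64 held 10 higher and 7 lower, beside 12.2% and 14.9%. Their maturation with the label Erk-/- held 17 higher and 15 lower, beside 22.1% and 35%, and their differences of maturation ratios 24 positive and 11 negative, beside 39.1% and 14%.

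These splits depend on the scale of the libraries. Median-of-ratios scaling, which sets the libraries to a common level over the genes above 0 in all 4, moved the median of all genes by -0.31 between genotypes at MII, by 0.18 in maturation with the label Erk-/-, by 0.67 in wild-type maturation and by -0.48 for the difference of maturation ratios. The MII comparison then held 36 higher and 28 lower Slc genes, so that 56.3% of the called genes were higher in place of 80.4%. Over all genes this share was 59.2% in place of 80.9%. In wild-type maturation 54 were higher and 51 lower, so that 51.4% of the called genes were higher in place of 38.2%. Over all genes this share was 42.3% in place of 29.3%. The difference of maturation ratios then had 51 positive and 39 negative genes, beside 3286 and 2674 of all 9990 genes. Upper-quartile scaling gave 37 higher and 20 lower at MII, 56 higher and 49 lower in wild-type maturation, and 55 positive and 35 negative differences. All 9990 genes then held 2746 higher and 1370 lower, 3025 higher and 4009 lower, and 3489 positive and 2438 negative, in the same order. Below, "either rescaling" means these alternatives, and counts are of libraries as deposited unless a scaling is named.

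Single genes depend on the scale too, and the changes among those described below include the following. The sign of the small genotype difference at MII turned under either rescaling for Slc7a11, Slc31a2, Slc30a4, Slc25a15, Slc25a26 and Slc43a3, and under median-of-ratios scaling for Slc12a5 and Slc6a9. The MII difference passed 2-fold, lower with the label, under either rescaling for Slc2a1 (log2 -1.38 and -1.25) and Slc33a1 (-1.34 and -1.20). It did so under median-of-ratios scaling alone for Slc45a3, Slc20a1, Slc6a6 and Slc30a5, and it lost its 2-fold call under either for Slc2a12. In maturation with the label Erk-/- the call was lost under upper-quartile scaling for Slc26a6 and Slc52a2 and under either rescaling for Slc25a39 and Slc29a2, while Slc15a4 and Slc25a17 passed 2-fold, higher, under either. In wild-type maturation Slc6a7 lost its call under either rescaling and Slc25a3 under upper-quartile scaling. Slc25a15, Slc7a5 and Slc44a1 passed 2-fold, higher, under either, and the sign of Slc16a1 turned.

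The wild-type and the labelled Erk-/- maturation comparisons share no library. The genes higher at MII in both numbered 26, which is 61.9% of the 42 with the label Erk-/- and 66.7% of the 39 in wild type. The genes lower at MII in both numbered 30, which is 81.1% of the 37 with the label Erk-/- and 47.6% of the 63 in wild type. Among all genes 1143 were higher in both, which is 49.9% of those higher with the label and 55.6% of those higher in wild type. Lower in both were 2664, which is 74.8% of those lower with the label and 53.8% of those lower in wild type. These are 11.4% and 26.7% of all 9990 genes, beside 26 and 30 of the 148 Slc genes. Slc25a35 and Slc25a46 were higher with the label and lower in wild type, and Slc25a20 was lower with the label and higher in wild type; 4.47% and 1.79% of all genes did so. Slc25a46 was named after its values were seen, and Slc25a20 reached 10 FPKM in Erk-/- GV alone.

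**Figure D2:**
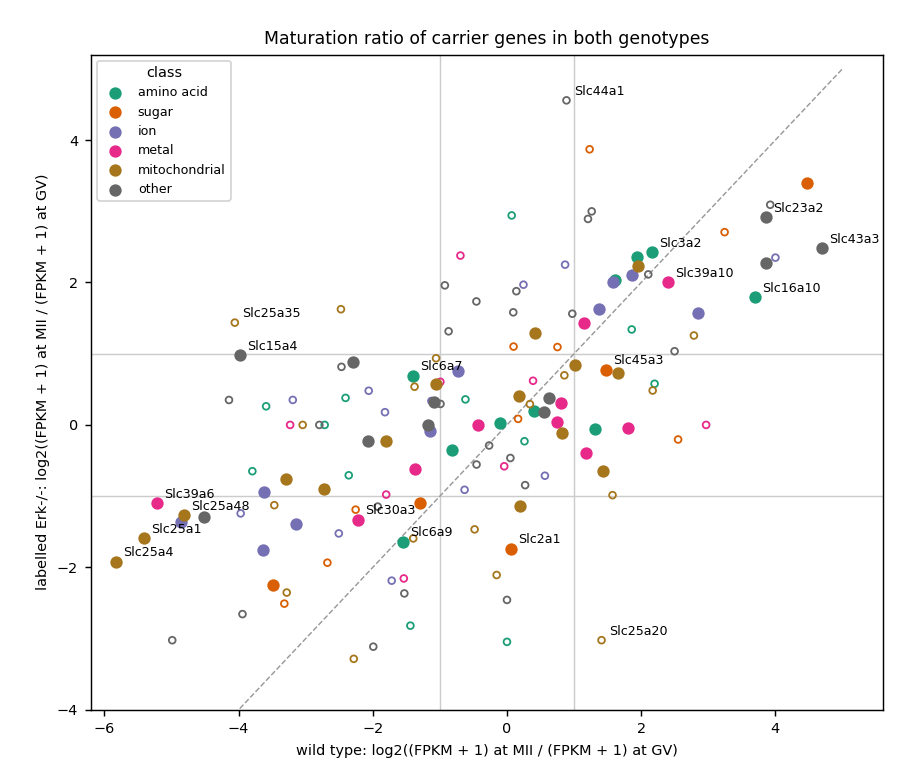
Maturation ratio of the 145 carriers, as log2 of (FPKM + 1) at MII over (FPKM + 1) at GV, in the libraries labelled Erk-/- on the vertical axis and in wild type on the horizontal axis. Colour gives the class, filled circles have a mean of at least 10 FPKM and open circles a lower one, grey lines mark 2-fold and the dashed line marks equal ratios. Slc23a2 and Slc39a10 lie far to the upper right, and Slc25a4, Slc39a6 and Slc25a48 lie far to the left and above the dashed line.

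The 3' ends of these transcripts were compared after a motif there was seen to be frequent in carriers higher at MII. Sequences are from the GENCODE M21 transcripts (build GRCm38), and the last 150 bases of the 3' untranslated region were searched on the transcript's own strand for TTTTAT or TTTTAAT, the forms of the cytoplasmic polyadenylation element (CPE) written as DNA. All 148 genes had an annotated transcript and 140 a region long enough. Each line below shows 30 bases, with CPEs and the polyadenylation signals AATAAA or ATTAAA in capitals. First are genes higher at wild-type MII that hold a CPE.
Slc23a2: tagagaaagctaTTTTATtctgtattttta
Slc39a10: agtggtgtgtcaTTTTATatatgttcctaa
Slc43a3: tctagggaatacTTTTATacaatAATAAAg
Slc35a1: ttatactttcttTTTTATaaagtatggtta
Slc12a9: gtttgtgttttgTTTTATttttctaactac
Slc45a3: gcagagtaaataTTTTATaccgtatgtgat
Slc16a10: caaccaaaacctTTTTAATgaagagtgctt
Slc6a20a: gtctttattcttTTTTATcatAATAAAgtg
Next are genes higher at wild-type MII in which no CPE was found, shown at the polyadenylation signal.
Slc7a11: tttcttttctatAATAAAtactgctttaag
Slc6a6: ttgtaacacaacAATAAAcatttccttttt
Last are genes lower at wild-type MII, first those shown at the polyadenylation signal with no CPE found.
Slc25a1: cttgccaaggagAATAAAccggatcctgtt
Slc30a3: tgcagctccacaAATAAAaacttggatcta
Slc10a3: gaaatatatttcAATAAAaaaaaaccaaaa
Slc25a48: tgtggacatgacTTTTATgtggaaatcata
Slc15a4: tgttttgtataaTTTTATaaaagcttctca

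A CPE was found in 46 of the 140 genes (32.9%) and in 26.5% of 8285 genes tested. Among genes higher at MII with the label Erk-/-, 20 of 39 (51.3%) held one, and among those higher at wild-type MII, 22 of 37 (59.5%). Genes that were lower at MII held one in 4 of 35 (11.4%) with the label and in 12 of 59 (20.3%) in wild type. Over all genes tested the shares were 37.6% and 44.1% for higher genes and 18% and 17% for lower genes, so the pattern was not confined to Slc genes. The median log2 maturation ratio with the label Erk-/- was 0.75 for the 46 genes with a CPE and -0.05 for the 94 without, and in wild type it was 0.87 with a CPE and -1.03 without. Over all genes tested it was 0.33 with a CPE and -0.43 without for the label, and 0.17 and -1.31 in wild type. The content of A and T in the window moved with the groups: it averaged 66.5% in Slc genes higher at wild-type MII and 57.3% in those lower, and its part in the motif count was not tested. Slc25a48 and Slc15a4 hold a CPE and were lower at wild-type MII, so a match did not fix the direction.

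**Figure D3:**
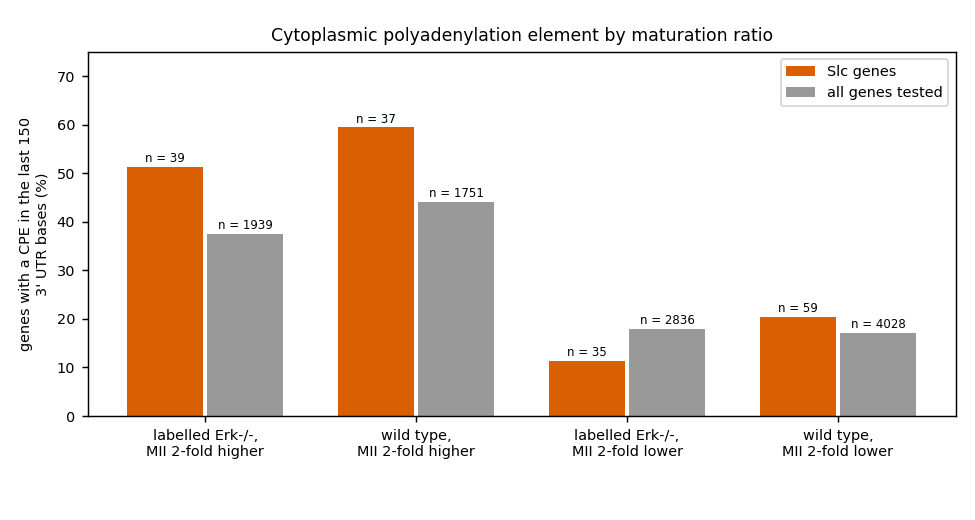
Share of genes with a CPE in the last 150 bases of the 3' untranslated region, in percent, for genes 2-fold higher or lower at MII than at GV, with the number of genes above each bar. For higher genes the bars of the Slc genes stand at 51.3% (labelled Erk-/-) and 59.5% (wild type), above those of lower genes at 11.4% and 20.3%.

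Amino acid carriers were led at MII by Slc3a2, the heavy chain that brings several light-chain exchangers to the cell surface (mm9 chromosome 19, 8781372 to 8797859). It had 118 FPKM (authors' bounds 114 to 124) in the MII library labelled Erk-/- and 245 (238 to 255) in wild-type MII, against 21.2 in Erk-/- GV and 54.1 in wild-type GV. Both MII libraries were above both GV libraries, and the libraries labelled Erk-/- were lower than wild type at each stage, 2.07-fold at MII and 2.55-fold at GV. Its partner Slc7a11, which imports cystine for glutathione synthesis, had 73.3 FPKM in the MII library labelled Erk-/- and 71.1 in wild-type MII, against 13.4 in Erk-/- GV and 17.7 in wild-type GV. Another partner, Slc7a5, the large neutral amino acid exchanger, was chosen after its values were seen. It had 39.3 FPKM in the MII library labelled Erk-/- and 16.1 in wild-type MII, against 34.3 in Erk-/- GV and 12.0 in wild-type GV. It was thus higher with the label at both stages, although the difference at MII was under 2-fold under either rescaling.

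Slc16a10, an aromatic amino acid carrier, had 74.1 FPKM in the MII library labelled Erk-/- and 96.6 in wild-type MII, against 20.7 in Erk-/- GV and 6.53 in wild-type GV. At GV it was 3.17-fold higher in Erk-/- than in wild type. Slc6a9 encodes GLYT1, by which mouse oocytes take up glycine for control of their volume. It went the other way, with 40.5 FPKM in the MII library labelled Erk-/- and 31.0 in wild-type MII, against 128 in Erk-/- GV and 92.4 in wild-type GV. Its wild-type MII level was 2.98-fold lower than its GV level, a difference of less than 2-fold under either rescaling. The direction of its small genotype difference at MII turned under median-of-ratios scaling.

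Slc6a7, a proline carrier, and Slc6a20a, a proline and betaine carrier known in mouse eggs, differed at MII in opposite directions. Slc6a7 had 64.2 FPKM in the MII library labelled Erk-/- and 14.3 in wild-type MII, against 39.4 in Erk-/- GV and 39.3 in wild-type GV. Slc6a20a had 20.0 FPKM (16.6 to 21.1) in the MII library labelled Erk-/- and 54.4 (47.0 to 55.6) in wild-type MII, against 20.9 in Erk-/- GV and 21.3 in wild-type GV. The GV libraries were alike for each gene, and the MII libraries were 4.50-fold apart for Slc6a7 and 2.73-fold for Slc6a20a. Reads of Slc6a20a and its close copy Slc6a20b (8.11 to 17.0 FPKM) may be split between them. Lower at wild-type MII but not in the library labelled Erk-/- was Slc7a1, a cationic amino acid carrier, with 8.24 FPKM in that library and 0.893 in wild-type MII, against 6.10 in Erk-/- GV and 9.04 in wild-type GV. Slc38a8, a neutral amino acid carrier, had 11.2 FPKM in the MII library labelled Erk-/- and was listed at 0 in wild-type MII, against 9.14 in Erk-/- GV and 11 in wild-type GV.

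As a class, 5 of 22 amino acid carriers were higher and 2 lower between genotypes at MII, with a median log2 ratio of 0.11, beside 31.4% higher, 7.43% lower and a median of 0.31 for all genes. In maturation with the label Erk-/- 6 were higher and 3 lower, beside 22.9% and 35.6%. In wild-type maturation 7 were higher and 8 lower, beside 20.6% and 49.6%. Under either rescaling 8 were higher and 5 lower, beside 2971 and 4060 of 9990 genes (median-of-ratios) and 3025 and 4009 (upper-quartile). Several carriers familiar from other cells were listed at or near 0. Such a value can be a failed estimate, since Timm22 and Tomm20, parts of the import machinery that mitochondria in every cell use, were likewise listed low, Timm22 at 0 in all 4 libraries and Tomm20 at 0.0183 FPKM in wild-type MII and 0.0242 in Erk-/- GV. Slc38a3, the carrier of cumulus cells that supplies the mouse oocyte with amino acids, was listed at 0 in all 4 libraries. The broad neutral amino acid carriers Slc1a5 and Slc38a2 had means of 0.333 and 0.0506 FPKM.

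**Figure D4:**
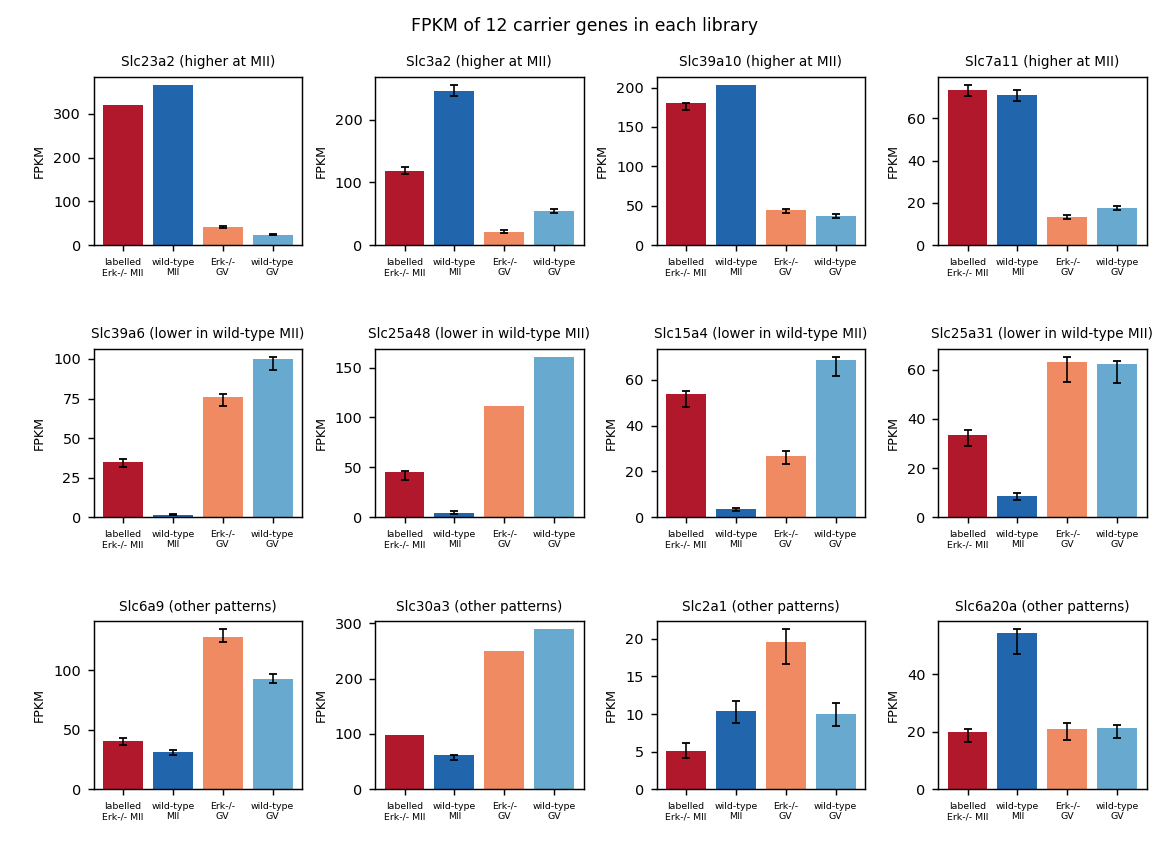
FPKM of 12 carriers in each library, from left to right labelled Erk-/- MII, wild-type MII, Erk-/- GV and wild-type GV; each bar starts at 0, and error bars are the authors' bounds where the value lies within them. The MII bars are the taller ones for Slc23a2, Slc3a2, Slc39a10 and Slc7a11, and in the middle row the wild-type MII bar is the shortest in each panel.

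Among sugar carriers Slc45a3 (mm9 chromosome 1, 133859492 to 133879549) had 951 FPKM in the MII library labelled Erk-/- and 1426 in wild-type MII, against 556 in Erk-/- GV and 512 in wild-type GV. It was 1.71-fold higher at MII with the label Erk-/-, past 2-fold under upper-quartile scaling, and 2.79-fold higher in wild type. The glucose carrier Slc2a1 had 5.15 FPKM in the MII library labelled Erk-/- and 10.4 in wild-type MII, against 19.5 in Erk-/- GV and 9.99 in wild-type GV. The libraries labelled Erk-/- differed 3.79-fold, lower at MII. The wild-type libraries were 0.05 apart on the log2 scale as deposited, higher at MII, but 0.81 and 0.85 apart under median-of-ratios and upper-quartile scaling. Slc2a3, the high-affinity glucose carrier, was listed at 0 in all 4. Slc2a12, another hexose carrier, had 2.94 FPKM in the MII library labelled Erk-/- and 0.884 in wild-type MII, against 14.1 in Erk-/- GV and 11 in wild-type GV.

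The carriers that bring nucleotide sugars into the Golgi differed among themselves. Slc35a1, which carries CMP-sialic acid, had 31.2 FPKM in the MII library labelled Erk-/- and 21.3 in wild-type MII, against 2.06 in Erk-/- GV, and it was listed at 0 in wild-type GV. Slc35a4, a member of the same family, had 45.9 FPKM in the MII library labelled Erk-/- and 15.8 in wild-type MII, against 99.2 in Erk-/- GV and 40.3 in wild-type GV. Slc35a4 was thus higher with the label at both stages and lower at MII in both genotypes. Its maturation differences were under 2-fold under either rescaling, as was its difference at MII under median-of-ratios scaling. Slc37a3, a sugar-phosphate carrier relative, had 4.63 FPKM in the MII library labelled Erk-/- and 0.906 in wild-type MII, against 25.7 in Erk-/- GV and 20.3 in wild-type GV. Of the 14 genes, 4 were higher and 0 lower between genotypes at MII with a median of 0, beside 31.4% higher, 7.43% lower and a median of 0.31 for all genes. This split turned with the scale, to 1 higher and 4 lower under median-of-ratios scaling and 2 in each direction under upper-quartile scaling. All 9990 genes then held 2503 higher and 1725 lower, and 2746 higher and 1370 lower, in the same order. Maturation with the label had 5 higher and 6 lower, beside 22.9% and 35.6%, and wild-type maturation 5 higher and 5 lower, beside 20.6% and 49.6%.

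Ion carriers included a group that was higher at MII in both genotypes. Slc12a9, a relative of the cation-chloride cotransporters, had 106 FPKM in the MII library labelled Erk-/- and 117 in wild-type MII, against 25.5 in Erk-/- GV and 38.5 in wild-type GV. Its MII libraries lay above its GV libraries, 4.15-fold with the label Erk-/- and 3.04-fold in wild type. Slc20a1, a phosphate importer, had 28.8 FPKM in the MII library labelled Erk-/- and 44.4 in wild-type MII, against 9.05 in Erk-/- GV and 5.27 in wild-type GV. Slc12a5, a potassium-chloride cotransporter best known from neurons, had 29.5 FPKM in the MII library labelled Erk-/- and 21.9 in wild-type MII, against 6.11 in Erk-/- GV and 5.27 in wild-type GV. The bicarbonate carrier Slc4a7 had 12.5 FPKM in the MII library labelled Erk-/- and 15.0 in wild-type MII, against 1.65 in Erk-/- GV, and was listed at 0 in wild-type GV.

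Other ion carriers were lowest in wild-type MII. Slc26a6, an anion exchanger, had 15.9 FPKM in the MII library labelled Erk-/- and was listed at 0 in wild-type MII, against 42.5 in Erk-/- GV and 28.0 in wild-type GV. Slc24a3, a potassium-dependent sodium-calcium exchanger, had 7.94 FPKM in the MII library labelled Erk-/- and 1 in wild-type MII, against 16.2 in Erk-/- GV and 23.7 in wild-type GV. Its MII value was 2.04-fold below GV with the label Erk-/- and 23.6-fold below in wild type. Slc9a3, the epithelial sodium-proton exchanger, chosen after its values were seen, had 9.38 FPKM in the MII library labelled Erk-/- and 1.56 in wild-type MII, against 34.1 in Erk-/- GV and 30.7 in wild-type GV. Slc12a7, a potassium-chloride cotransporter, had 27.2 FPKM in the MII library labelled Erk-/- and 11 in wild-type MII, against 29.0 in Erk-/- GV and 25.4 in wild-type GV, and neither its genotype nor its wild-type maturation difference reached 2-fold under either rescaling. The sulphate carrier Slc26a2 differed at GV, with 3.16 FPKM in Erk-/- and 20.7 in wild type, and was below 1 FPKM in both MII libraries.

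Over the 22 ion carriers, 8 were higher and 0 lower in the MII library labelled Erk-/- than in wild-type MII, with a median log2 ratio of 0.38, beside 31.4% higher, 7.43% lower and a median of 0.31 for all genes. Under median-of-ratios scaling 7 were higher and 2 lower, beside 2503 and 1725 of 9990 genes. Under upper-quartile scaling 7 were higher and 0 lower, beside 2746 and 1370. Maturation with the label Erk-/- had 7 higher and 6 lower, beside 22.9% and 35.6%. Wild-type maturation had 5 higher, all of them among those 7, and 12 lower, beside 20.6% and 49.6%. Its median was -1.13, beside -0.97 for all genes. Over all genes, 55.6% of those higher at wild-type MII were also higher with the label. Under either rescaling wild-type maturation had 7 higher and 10 lower, beside 2971 and 4060 of 9990 genes (median-of-ratios) and 3025 and 4009 (upper-quartile). The difference of maturation ratios was positive past the threshold for 13 of 22 and negative for 3, beside 41.2% and 18.8% of all genes. Under median-of-ratios scaling 9 were positive and 3 negative, beside 3286 and 2674 of 9990 genes. With upper-quartile scaling 11 were positive and 3 negative, beside 3489 and 2438.

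Metal carriers held a pair of zinc importers, ZIP10 and ZIP6, known in mouse oocytes for the zinc uptake that meiosis needs, and their transcripts went in opposite directions. Slc39a10, for ZIP10 (mm9 chromosome 1, 46864389 to 46910354), had 180 FPKM in the MII library labelled Erk-/- and 203 in wild-type MII, against 44.2 in Erk-/- GV and 37.5 in wild-type GV. It was 4.08-fold higher at MII with the label and 5.41-fold in wild type. Slc39a6, for ZIP6, had 34.9 FPKM (32.0 to 36.6) in the MII library labelled Erk-/- and 1.71 (1.32 to 2.11) in wild-type MII, against 76.0 in Erk-/- GV and 99.96 in wild-type GV. With the label Erk-/- its MII level was 2.17-fold below GV, a difference under 2-fold under either rescaling. In wild type it was 58.4-fold below GV, and the MII libraries differed 20.4-fold.

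The zinc exporters Slc30a3, Slc30a4 and Slc30a5 move zinc into vesicles and organelles. Slc30a3 had 99.0 FPKM in the MII library labelled Erk-/- and 61.4 in wild-type MII, against 251 in Erk-/- GV and 289 in wild-type GV, and its difference with the label was under 2-fold under upper-quartile scaling. At GV the other two were higher in Erk-/- than in wild type. Slc30a4 had 17.3 FPKM in the MII library labelled Erk-/- and 14.4 in wild-type MII, against 23.1 in Erk-/- GV and 5.82 in wild-type GV. Slc30a5 had 31.2 FPKM in the MII library labelled Erk-/- and 45.7 in wild-type MII, against 32.1 in Erk-/- GV and 12.4 in wild-type GV. With the label Erk-/- their MII levels were within 1.33-fold of GV, and in wild type they stood 2.48-fold and 3.69-fold above GV. The copper carrier Slc31a2 had 83.5 FPKM in the MII library labelled Erk-/- and 73.4 in wild-type MII, against 30.3 in Erk-/- GV and 32.5 in wild-type GV. Of the 18 metal carriers, 4 were higher and 1 lower between genotypes at MII, with a median of 0.22, beside 31.4%, 7.43% and a median of 0.31 for all genes. Under median-of-ratios scaling 3 were higher and 2 lower, with a median of -0.0216, beside 2503 higher, 1725 lower and a median of 0 over 9990 genes. Maturation with the label Erk-/- had 3 in each direction, beside 22.9% higher and 35.6% lower. Wild-type maturation had 5 higher and 6 lower, beside 20.6% and 49.6%. Under either rescaling it had 8 higher and 5 lower, beside 2971 and 4060 of 9990 genes (median-of-ratios) and 3025 and 4009 (upper-quartile).

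Mitochondrial carriers of the Slc25a family exchange ADP and ATP, phosphate, metabolites and cofactors across the inner membrane, with few members elsewhere. The adenine nucleotide translocases split by gene. Slc25a5 (ANT2, mm9 X chromosome, 34335647 to 34338801) had 89.1 FPKM in the MII library labelled Erk-/- and 60.0 in wild-type MII, against 66.7 in Erk-/- GV and 52.9 in wild-type GV. Slc25a4 (ANT1, mm9 chromosome 8, 47292698 to 47296363) had 11.8 FPKM in the MII library labelled Erk-/- and was listed at 0 in wild-type MII, against 47.5 in Erk-/- GV and 55.6 in wild-type GV. Slc25a31 (ANT4, the germ cell form), chosen after its values were seen, had 33.4 FPKM in the MII library labelled Erk-/- and 8.55 in wild-type MII, against 63.1 in Erk-/- GV and 62.1 in wild-type GV. At GV these genes were within 1.26-fold between genotypes, and at wild-type MII Slc25a5 was the highest of them. Reads from processed pseudogenes of these genes may be split in ways the values cannot show.

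Several metabolite carriers were lowest in wild-type MII. Slc25a48, linked to mitochondrial choline uptake, had 45.6 FPKM in the MII library labelled Erk-/- and 4.72 in wild-type MII, against 111 in Erk-/- GV and 160 in wild-type GV. The citrate carrier Slc25a1 had 8.38 FPKM in the MII library labelled Erk-/- and 0.117 in wild-type MII, against 27.2 in Erk-/- GV and 46.4 in wild-type GV. For both genes the order of the libraries was wild-type GV, Erk-/- GV, labelled Erk-/- MII and wild-type MII, from high to low. The difference of Slc25a48 with the label was under 2-fold under upper-quartile scaling.

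Other family members were lower in the MII library labelled Erk-/- than in wild-type MII. Slc25a17, a peroxisomal carrier of cofactors, had 45.7 FPKM in the MII library labelled Erk-/- and 100.4 in wild-type MII, against 25 in Erk-/- GV and 49.0 in wild-type GV. Slc25a39, known for glutathione import, had 7.75 FPKM in the MII library labelled Erk-/- and 24.9 in wild-type MII, against 18.3 in Erk-/- GV and 21.6 in wild-type GV. Slc25a16 had 11.4 FPKM in the MII library labelled Erk-/- and 26.5 in wild-type MII, against 6.52 in Erk-/- GV and 7.70 in wild-type GV. These 3 stayed past 2-fold at MII under either rescaling, and Slc25a17 was nearly 2-fold apart at GV as well (1.96-fold).

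At GV the family held several wide genotype differences. The carnitine-acylcarnitine carrier Slc25a20, which brings fatty acids in for oxidation, had 21.2 FPKM in Erk-/- GV and 0.0564 in wild-type GV, while the MII libraries had 1.74 with the label and 1.81 in wild type. The S-adenosylmethionine carrier Slc25a26 had 24.4 FPKM in Erk-/- GV and 4.68 in wild-type GV, and 15.2 with the label and 14.3 in wild type at MII. The ornithine carrier Slc25a15 had 110 FPKM in Erk-/- GV and 48.1 in wild-type GV, and 102 with the label and 85.4 in wild type at MII. In the other direction the phosphate carrier Slc25a3 had 8.10 FPKM in Erk-/- GV and 36.9 in wild-type GV, and 6.80 with the label and 9.87 in wild type at MII. For Slc25a26, Slc25a15 and Slc25a3 the MII libraries were closer to each other than the GV libraries were. Slc25a25, an ATP-magnesium and phosphate carrier, had 12.4 FPKM in Erk-/- GV and 1.42 in wild-type GV.

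Of the 32 mitochondrial carriers, 11 were higher and 5 lower between genotypes at MII, with a median log2 ratio of 0.17. All genes had 31.4% higher, 7.43% lower and a median of 0.31. Under either rescaling 11 of the 32 were higher and 9 lower, beside 2503 and 1725 of 9990 genes (median-of-ratios) and 2746 and 1370 (upper-quartile). At GV 7 were higher and 8 lower, beside 18.4% and 22.9%. Maturation with the label Erk-/- had 5 higher and 11 lower, beside 22.9% and 35.6%. Wild-type maturation had 8 higher and 16 lower with a median of -0.77, beside 20.6%, 49.6% and -0.97. The split was 12 higher and 13 lower under median-of-ratios scaling, beside 2971 and 4060 of 9990 genes. Under upper-quartile scaling it was 14 higher and 11 lower, beside 3025 and 4009. Among the 15 with a mean of at least 10 FPKM the wild-type maturation median was 0.18, with 4 higher and 7 lower. Of the 5294 genes in the series that reach this mean, 23% were higher and 48.2% lower, with a median of -0.85. Other genes of mitochondrial transport stood beside the mitochondrial carriers. Of 12 genes for the import of carrier proteins, 8 were higher and 0 lower in the MII library labelled Erk-/- than in wild-type MII, beside 31.4% and 7.43% of all genes. Timm9, an intermembrane chaperone of carrier proteins, had 69.7 FPKM in the MII library labelled Erk-/- and 1.83 in wild-type MII, against 176 in Erk-/- GV and 221 in wild-type GV. Of 12 further genes of mitochondrial transport, such as porins and the pyruvate carrier, 5 were higher and 0 lower at MII with the label, beside the same background. Both splits were the same in number under either rescaling, while all 9990 genes held 2503 higher and 1725 lower (median-of-ratios) and 2746 and 1370 (upper-quartile).

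The remaining carriers were led by Slc23a2, the sodium-coupled vitamin C importer (mm9 chromosome 2, 131878232 to 131970844). It had 320 FPKM in the MII library labelled Erk-/- and 366 in wild-type MII, against 41.5 in Erk-/- GV and 24.3 in wild-type GV, and was 7.70-fold higher at MII with the label and 15.1-fold in wild type. The taurine carrier Slc6a6 had 43.6 FPKM in the MII library labelled Erk-/- and 64.5 in wild-type MII, against 8.24 in Erk-/- GV and 3.51 in wild-type GV. Slc43a3, a purine nucleobase carrier, had 42.3 FPKM in the MII library labelled Erk-/- and 42.3 in wild-type MII, against 6.77 in Erk-/- GV and 0.673 in wild-type GV. For these genes the MII libraries stood above the GV libraries, and the Erk-/- GV level was above that of wild-type GV. Slc33a1, which carries acetyl-CoA into the endoplasmic reticulum, had 7.52 FPKM in the MII library labelled Erk-/- and 14.2 in wild-type MII, and was listed at 0 in both GV libraries.

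Slc15a4, a lysosomal histidine and peptide carrier, had 53.8 FPKM (48.3 to 55.4) in the MII library labelled Erk-/- and 3.41 (2.67 to 4.14) in wild-type MII, against 26.7 in Erk-/- GV and 68.7 in wild-type GV. It was 15.8-fold higher with the label at MII and 2.57-fold lower in Erk-/- at GV, so its maturation differed in direction between genotypes. Slc44a2, a choline carrier, had 120 FPKM in the MII library labelled Erk-/- and 50.9 in wild-type MII, against 120 in Erk-/- GV and 116 in wild-type GV, and both its genotype difference at MII and its wild-type maturation were under 2-fold under either rescaling. The riboflavin carrier Slc52a2 had 7.81 FPKM in the MII library labelled Erk-/- and was listed at 0 in wild-type MII, against 20.6 in Erk-/- GV and 21.8 in wild-type GV. Slc10a3 was listed at 0 in both MII libraries and had 7.13 FPKM in Erk-/- GV and 30.8 in wild-type GV. The lactate and pyruvate carrier Slc16a1 had 7.61 FPKM in the MII library labelled Erk-/- and 3.59 in wild-type MII, against 1.59 in Erk-/- GV and 5.29 in wild-type GV.

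Over the 37 carriers of other substrates, 11 were higher and 3 lower between genotypes at MII, beside 31.4% and 7.43% of all genes. Under median-of-ratios scaling 8 were higher and 8 lower, beside 2503 and 1725 of 9990 genes. At GV 6 were higher and 15 lower, beside 18.4% and 22.9%, with a median log2 ratio of -0.44 beside -0.06 for all genes. Of the 5294 genes that average 10 FPKM or more, 12.2% were higher and 14.9% lower at GV, with a median of -0.0568. Among the 11 carriers of this class with that mean, 2 were higher and 3 lower at GV with a median of -0.0774. Among those lower in Erk-/- GV were the carnitine importer Slc22a5, listed at 0 in Erk-/- GV and at 13.7 FPKM in wild-type GV, and the serotonin carrier Slc6a4, at 3.71 FPKM in Erk-/- GV and 16.7 in wild-type GV. The choline carrier Slc44a1 was listed at 0 in Erk-/- GV and had 5.40 FPKM in wild-type GV. The nucleoside carrier Slc29a2 was higher in Erk-/- GV, at 10.8 FPKM beside 2.80 in wild-type GV. Maturation with the label Erk-/- had 15 higher and 7 lower, beside 22.9% and 35.6%. Wild-type maturation had 8 higher, all of them among those 15, and 14 lower, beside 20.6% and 49.6%. Over all genes, 55.6% of those higher at wild-type MII were also higher with the label. Under either rescaling wild-type maturation had 12 in each direction. All 9990 genes then held 2971 higher and 4060 lower (median-of-ratios) and 3025 and 4009 (upper-quartile).

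**Figure D5:**
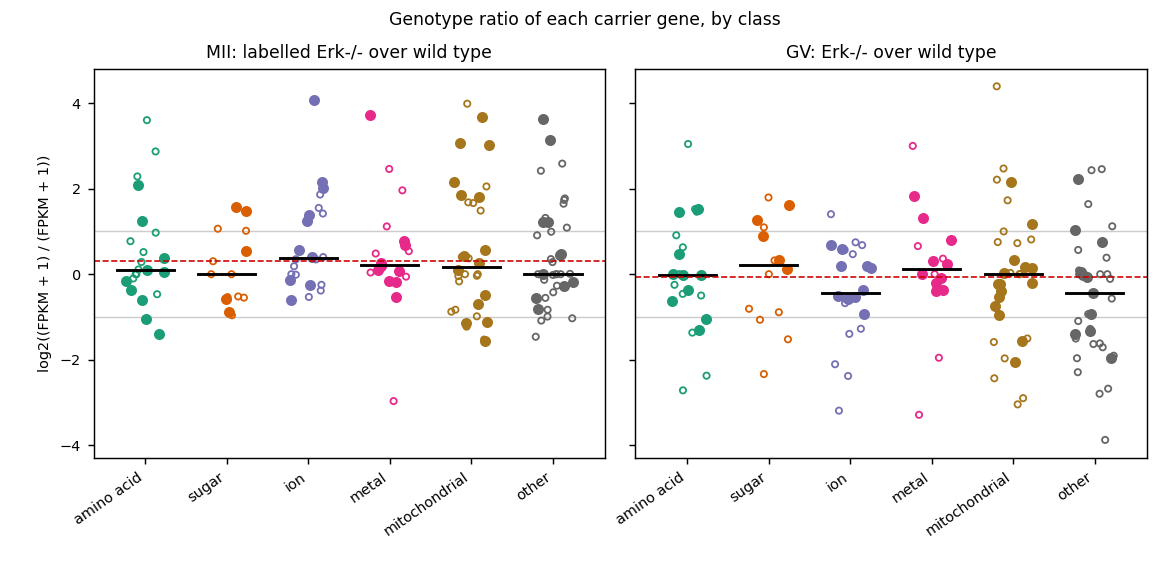
Genotype ratio of each of the 145 carriers by class, as log2 of (FPKM + 1) labelled Erk-/- over (FPKM + 1) wild type, at MII on the left and at GV on the right. Filled circles have a mean of at least 10 FPKM, the black bar is the class median, the red dashed line is the median of all genes (0.31 at MII, -0.06 at GV) and grey lines mark 2-fold. In the libraries as deposited no circle of the ion or sugar class lies below the lower grey line at MII, whereas under median-of-ratios scaling 2 ion and 4 sugar carriers were 2-fold lower.

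Of the 3 genes that are no carriers, Slc4a1ap had 7.97 FPKM in the MII library labelled Erk-/- and was listed at 0 in wild-type MII, against 64.9 in Erk-/- GV and 54.4 in wild-type GV. The other two were chosen after their values were seen. Slc9a3r1 had 20.5 FPKM in the MII library labelled Erk-/- and 4.08 in wild-type MII, against 25.6 in Erk-/- GV and 39.7 in wild-type GV. Slc7a6os had 183 FPKM in the MII library labelled Erk-/- and 172 in wild-type MII, against 83.1 in Erk-/- GV and 76.8 in wild-type GV, and reads of Slc7a6 on the opposite strand cannot be told apart from its own, since the labels do not say whether strand was kept.

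Pumps and channels that set the gradients carriers use were compared as lists. Of 5 sodium-potassium pump subunits, 1 was higher and 0 lower between genotypes at MII. Of 17 vacuolar proton pump subunits, 7 were higher and 0 lower with the label at MII, beside 31.4% and 7.43% of all genes, and under median-of-ratios scaling 4 were higher and 2 lower. Its wild-type maturation had 3 higher and 6 lower, beside 20.6% and 49.6%. Under either rescaling it had 7 higher and 5 lower, beside 2971 and 4060 of 9990 genes (median-of-ratios) and 3025 and 4009 (upper-quartile). Its subunit Atp6v1e1 had 12.2 FPKM in the MII library labelled Erk-/- and was listed at 0 in wild-type MII, against 105 in Erk-/- GV and 100.2 in wild-type GV. Of 15 ABC transporters 6 were higher and 0 lower with the label at MII, and of 12 carrier chaperones and regulators 3 were higher and 0 lower. Under median-of-ratios scaling 4 ABC transporters were higher and under upper-quartile scaling 5, with 0 lower in each. The chaperones and regulators stayed at 3 higher and 0 lower under either. Of 5 aquaporins and gap junction genes 1 was higher and 1 lower. The MII counts of these lists as deposited are read beside the background of 31.4% higher and 7.43% lower over all genes. The rescaled MII counts are read beside 2503 higher and 1725 lower of 9990 genes (median-of-ratios) and 2746 and 1370 (upper-quartile).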

How the data were processed

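Each library has 1 table by the authors, with FPKM per gene and a lower and an upper bound of confidence, as deposited. The tools CASAVA 1.8 and TopHat and the mouse build mm9 come from the submitters' processing notes. Not given in the sources used here are the program behind FPKM, its annotation, the level of the bounds and the handling of multiply mapped reads. The number of reads per library is unknown. Bounds cover uncertainty within a library only and are not quoted where the value lies outside them.

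FPKM was summed per symbol (260 symbols were on several rows, none of them an Slc gene described here). Genes were compared as log2((FPKM + 1)/(FPKM + 1)) over the 9990 genes whose mean reached 1 FPKM. With 1 library per group the 2-fold rule is a rule of size and no p-value is given. A value of exactly 0 may be a failed estimate, and no fold is given against it. Folds quoted for a gene divide FPKM by FPKM, with nothing added. Locus starts count from 0 in the files, so 1 was added.

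The genes, substrate classes and lists were chosen with earlier results of these data known, and Slc4a1ap was moved to the genes that are no carriers after the files were read. The naming rule took, per class, the 4 highest mean levels and the 2 highest and 2 lowest differences of maturation ratios among genes that average 10 FPKM or more. It added, per comparison, the 6 highest and 6 lowest ratios among genes of at least 10 FPKM, the 3 symbols on either side of the threshold, and 17 genes in every case, giving 73. The 3' end motifs were chosen after values were seen. Alternatives were the pseudocount, the filter on low values, scaling, genes listed at 0, the fold and the bounds. The comparison code was tested on simulated data. Python 3.11.15, pandas 2.3.3, numpy 2.4.6 and matplotlib 3.10.9 were used. A few genes are not reported here.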

Additional observations from a re-analysis of the deposited data

Results flagged for a closer look

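The maturation of a pair of mitochondrial carriers went in opposite directions in the genotypes, by at least 2-fold in each and with 10 FPKM or more in a library. Slc25a20, the carnitine-acylcarnitine carrier, was lower at MII with the label Erk-/- (1.74 FPKM at MII, 21.2 at GV) and higher at MII in wild type (1.81 at MII, 0.0564 at GV), and its log2 maturation ratio with the label minus that in wild type was -4.43. Slc25a35, whose substrate is not settled, was higher at MII with the label (14.9 FPKM at MII, 4.86 at GV) and lower in wild type (listed at 0 at MII, 15.6 at GV), and its difference was 5.49. Each value rests on single libraries, and neither difference was tested.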

How the results depend on the processing

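With 1 library per group no replicate could be left out. No paired analysis was possible because each group has 1 library and no result comes from a test. Counts below are Slc genes higher and lower as deposited 45 and 11 (genotype at MII), 26 and 38 (genotype at GV), 42 and 37 (maturation, labelled Erk-/-), 39 and 63 (maturation, wild type) and 63 and 28 (difference of maturation ratios). The pseudocount of 0.1 FPKM, the highest row of each symbol, non-overlapping bounds, leaving out the 3 genes that are no carriers and asking for 1 FPKM in at least 2 libraries left every count within 1.5 times; the last 2 were added after the data were seen. At a mean of at least 10 FPKM the counts in the same order were 22 and 5, 10 and 7, 17 and 15, 23 and 27, and 24 and 11, over fewer genes by construction. Without genes listed at 0, which leaves 94 Slc genes, they were 28 and 7, 16 and 15, 21 and 19, 34 lower in wild-type maturation, and 31 and 17. At 3-fold the counts that moved were 1 lower at MII, 14 and 24 at GV, 23 lower with the label, 25 higher in wild type, and 16 negative differences. Shares over all genes were not computed without genes listed at 0 or at 3-fold. Whether all genes moved in the same way under these settings was therefore not tested. Genes lower at MII with the label numbered 28 under median-of-ratios and 20 under upper-quartile scaling. The median of the Slc genes changed sign to 0.0103 at GV without genes listed at 0, to 0.12 in wild-type maturation where the mean is 10 FPKM or more, and to -0.0893 for the difference under median-of-ratios scaling.

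Class medians changed sign as follows, and the cause was not tested. Under median-of-ratios scaling the MII genotype median became -0.0733 for amino acid, -0.0216 for metal and -0.0708 for mitochondrial carriers. The GV median became 0.0294 for amino acid carriers, and the median of maturation with the label 0.10 for sugar carriers. Wild-type maturation became 0.0881 for amino acid and 0.16 for metal carriers. The difference became -0.28 for amino acid, -0.28 for sugar, -0.29 for metal and -0.28 for mitochondrial carriers. At a mean of at least 10 FPKM the medians were -0.0624 for amino acid carriers at MII, 0.86 for amino acid, 0.77 for metal and 0.18 for mitochondrial carriers in wild-type maturation, and -0.70 for sugar and -0.0602 for metal carriers in the difference. Without genes listed at 0 they were 0.0803, 0.39 and 0.20 for amino acid, metal and mitochondrial carriers in wild-type maturation, and -0.16 for mitochondrial and -0.0223 for other carriers in the difference. Depth is unknown, so levels near 1 FPKM carry no counting interval.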
